A study of Mus musculus with 8 samples.

Results

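The genes described here are 10 of the 54752 gene identifiers in the count tables, namely the bone morphogenetic protein (BMP) ligands *Bmp4*, *Bmp6* and *Bmp7*, the Smad genes *Smad6*, *Smad7* and *Smad9*, and the target genes *Id1*, *Id2*, *Id3* and *Id4*. They were chosen by name for their place in the BMP pathway, and all 10 had enough counts to be tested. RNA was taken from fetal mouse brains at E15.5, and each brain was sequenced as a library of its own. The mice were wild type C57BL/6 (substrain Slac in the methods). The paper describes the tissue as the whole fetal brain, with forebrain, midbrain and hindbrain. The sample table of the study enters it as half_whole_brain, so how much of each brain was used is unclear. The control group held 4 brains (F36 and F37 of females, M30 and M31 of males) from dams kept in their home cages, and the stress group held 4 brains (F34 and F35 of females, M28 and M29 of males) from dams exposed to chronic unpredictable mild stress (CUMS) until the day before collection. All 4 control brains were littermates, and so were all 4 stressed brains. The effect of litter and that of CUMS therefore cannot be told apart, and the p-values below measure the spread among littermates. The comparison asked how prenatal stress of the dam changed transcript levels in the brain of the fetus.

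BMP ligands are secreted proteins that bind paired receptors of type I and type II at the cell surface. The type I receptor then phosphorylates the receptor-activated Smads (*Smad1*, *Smad5* and *Smad9*), which enter the nucleus with *Smad4* and switch on target genes, the best known of which are the *Id* genes and the inhibitory Smads *Smad6* and *Smad7*, which feed back on the receptors. *Smad9* is thus grouped here with the Smads but codes for a receptor-activated Smad and not for an inhibitory one. Id proteins lack a DNA-binding region and pair with basic helix-loop-helix proteins such as the E proteins, which keeps these off their DNA sites, and they are known for holding neural progenitors in an undifferentiated state. In the fetal brain, BMP ligands come from the dorsal midline, the choroid plexus and the meninges.

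The total was between 25320109 and 29105710 counts per library, and mitochondrial genes took at most 2.31% of the counts in any library. A gene was called when edgeR's quasi-likelihood test, with sex in the model, gave an adjusted p under 0.05. By this rule 13.8% of the 17865 genes tested were called, 6.49% higher and 7.27% lower in the stress group, and in 16.4% the 4 brains of one group all lay above the 4 of the other (8.20% with the stressed brains higher, 8.22% lower). DESeq2 called 9.29% of the genes (4.19% higher, 5.10% lower). The median log2 fold change over all genes tested was 0.00. Neuron markers stood at a summed 6026 to 6332 CPM (counts scaled to a common library size) over the 8 brains, and *Alb*, *Afp* and *Myod1*, markers of liver and muscle, had at most 4 counts in any library. The heart muscle gene *Myh6* had 13 to 32 counts per library (log2 fold change -0.54, SE 0.24, edgeR adjusted p = 0.150).

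The members differed widely in level. On the scale of FPKM, which is CPM per kilobase of exon and can be compared between genes, *Id4* was the highest at 86.5 ± 3.78 FPKM (SD, n = 8), above 97.9% of the genes tested. *Id2* followed at 55.5 ± 2.64 FPKM, then *Id3* at 10.4 ± 0.655 FPKM and *Id1* at 8.39 ± 0.858 FPKM. The inhibitory Smad *Smad7* reached 2.12 ± 0.121 FPKM and the ligand *Bmp7* 1.77 ± 0.187 FPKM. The lowest levels were 0.703 ± 0.118 FPKM for *Bmp6*, 0.642 ± 0.080 FPKM for *Smad6*, 0.387 ± 0.075 FPKM for *Smad9* and 0.164 ± 0.054 FPKM for *Bmp4*, which lay above only 3.96% of the genes tested. In this order the ranges over the 8 brains overlapped between *Id3* and *Id1*, between *Smad7* and *Bmp7* and between *Bmp6* and *Smad6*, and those of all other neighbours did not. The *Id* genes were thus the most abundant members, and the ligands *Bmp6* and *Bmp4* were among the least abundant.

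**Figure D1:**
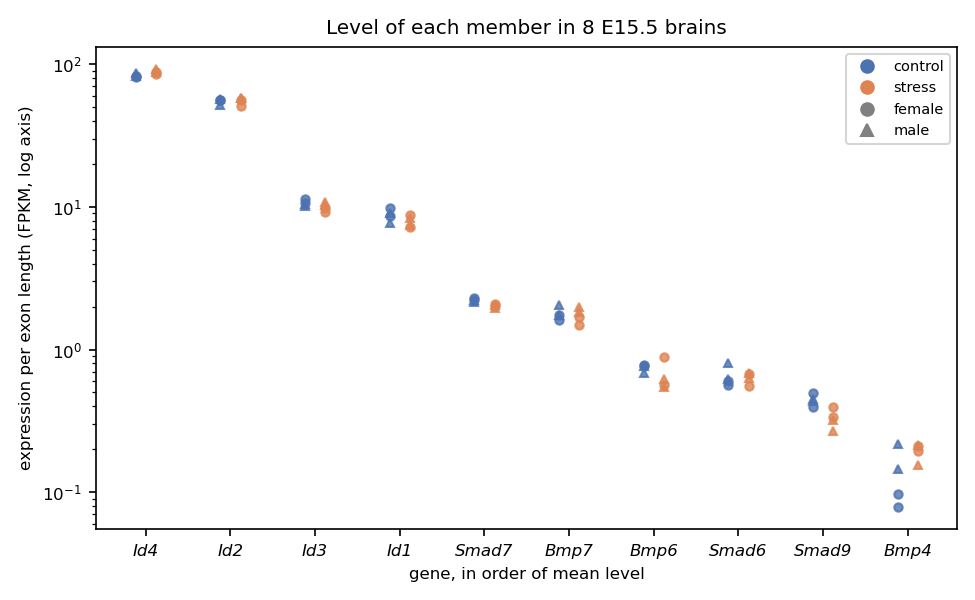
Level of each of the 10 members in FPKM on a log axis, with 1 point per brain (4 control, 4 stress). *Id4* lies highest, at 86.5 FPKM on average, and *Bmp4* lowest, at 0.164 FPKM, and the *Id3* and *Id1*, *Smad7* and *Bmp7*, and *Bmp6* and *Smad6* points overlap.

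RefSeq (GRCm38.p6, the build also called mm10) gave a promoter of 300 bases, 250 before to 50 after the annotated start, for 7 of the 10 members. *Id1*, *Bmp7* and *Smad7* had no entry. Each was searched for letters known to be bound by Smads, which were GGCGCC, the GC-rich element of BMP target genes, CAGAC or its reverse complement GTCTG, and the palindrome GTCTAGAC. Both strands were covered, and neighbouring matches of different letters could share an end base. The promoters of the only member called between the groups (*Id4*), of a close relative that was not called (*Id2*), of the member with the most negative difference (*Smad9*) and of the holder of the palindrome (*Smad6*) are given 5′ to 3′ with the match in capitals. *Id4* is at chr13:48260866-48261165 on the plus strand, *Id2* at chr12:25096043-25096342 on the minus strand, *Smad9* at chr3:54755332-54755631 on the plus strand and *Smad6* at chr9:64022010-64022309 on the minus strand.
Id4: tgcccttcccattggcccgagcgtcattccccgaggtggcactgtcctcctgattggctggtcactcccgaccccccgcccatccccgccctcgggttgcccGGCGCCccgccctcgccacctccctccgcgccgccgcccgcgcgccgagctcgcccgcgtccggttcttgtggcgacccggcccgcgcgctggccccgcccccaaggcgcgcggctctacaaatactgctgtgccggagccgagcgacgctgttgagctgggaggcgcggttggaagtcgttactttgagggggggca
Id2: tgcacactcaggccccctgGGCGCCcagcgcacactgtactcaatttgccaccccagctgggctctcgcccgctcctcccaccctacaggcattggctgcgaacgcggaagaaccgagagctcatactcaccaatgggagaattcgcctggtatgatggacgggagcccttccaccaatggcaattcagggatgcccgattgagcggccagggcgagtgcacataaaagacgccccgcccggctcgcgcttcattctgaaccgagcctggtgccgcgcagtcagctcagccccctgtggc
Smad9: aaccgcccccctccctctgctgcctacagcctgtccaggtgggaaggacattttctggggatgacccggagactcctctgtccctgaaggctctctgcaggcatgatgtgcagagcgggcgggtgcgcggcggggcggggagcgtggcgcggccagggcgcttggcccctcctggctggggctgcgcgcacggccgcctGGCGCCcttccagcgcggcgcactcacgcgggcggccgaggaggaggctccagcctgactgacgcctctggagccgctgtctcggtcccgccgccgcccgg
Smad6: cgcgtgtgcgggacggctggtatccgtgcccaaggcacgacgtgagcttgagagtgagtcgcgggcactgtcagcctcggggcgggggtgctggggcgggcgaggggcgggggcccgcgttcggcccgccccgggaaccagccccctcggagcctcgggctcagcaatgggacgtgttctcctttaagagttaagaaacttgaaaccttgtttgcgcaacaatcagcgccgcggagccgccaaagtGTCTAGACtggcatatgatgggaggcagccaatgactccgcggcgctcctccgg

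GGCGCC began 148 bases before the start of *Id4*, 231 bases before that of *Id2* and 51 bases before that of *Smad9*. It was thus in 3 of the 7 member promoters and in 11.9% of all 32851 RefSeq promoters of this length. G and C made up 60% to 73.7% of the bases of the member promoters. The share over all promoters was not matched for this, so no enrichment is read from it. Of the 3 genes that carry GGCGCC, *Id4* was called in the comparison below and *Id2* and *Smad9* were not. GTCTAGAC began 4 bases before the start of *Smad6* and was in 0.213% of all promoters. CAGAC or GTCTG was in 2 of the 7, *Bmp6* (119 bases before the start) and *Id3* (167 and 68 bases before it), against 49.6% of all promoters, and *Bmp4* held none of these letters. A match is a run of letters, and no Smad binding was measured.

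Between the groups, *Id4* rose in the stressed brains by 6.32%, and the other 9 members were not called. The largest difference in a member with over 40 counts in each brain was in *Smad9*, with a difference of -25.7% that just missed the threshold, and *Smad7*, with a difference of -9.13%, was the only member whose groups did not overlap. This made 1 of 10 members called, 1 higher and 0 lower, against 13.8% of all genes, so the share of members called was near the background. At an unadjusted p under 0.05 there were 2 members, *Id4* and *Smad9*, and DESeq2 called *Id4* alone. Of all genes, 26.9% had an unadjusted p under 0.05. With females or males alone no member was called, against 3.91% and 8.49% of all genes. Without stress F34, which stood apart in the summed choroid plexus markers and in the choroid plexus gene *Ttr*, the count stayed at 1 higher and 0 lower. The same count was found without stress M28, which stood apart in the summed meningeal markers. Without control F36, control F37, control M31, stress F35 or stress M29 the call of *Id4* was lost. The median log2 fold change of the 10 was -0.05, with 3 of 10 above 0.

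**Figure D2:**
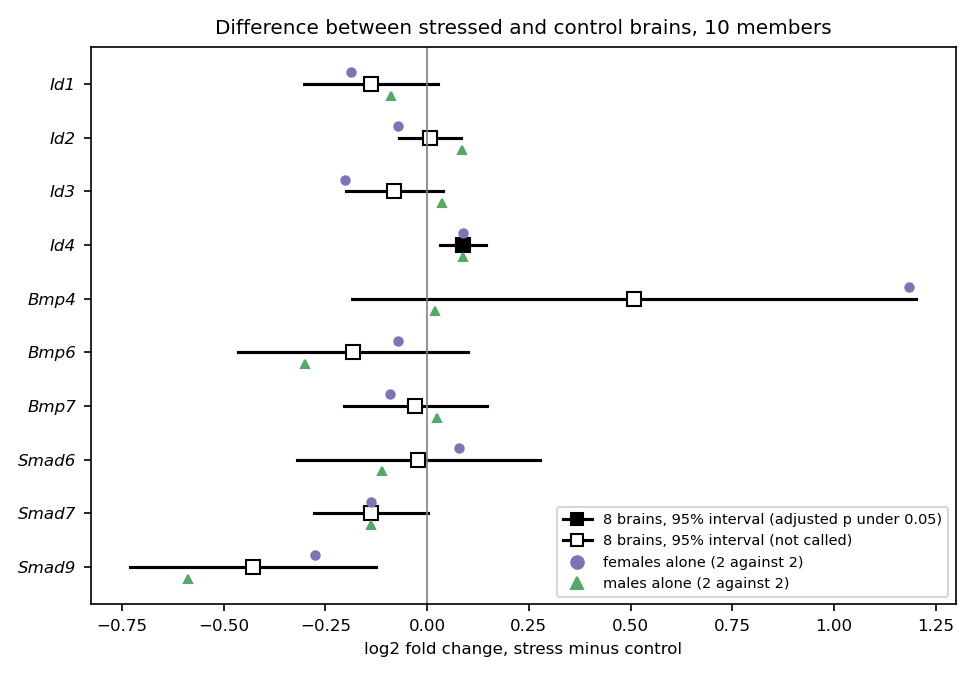
Log2 fold change of each member, stress minus control, with its 95% confidence interval from edgeR. The interval of *Id4* lies above 0 (0.03 to 0.14), that of *Smad9* below 0 (-0.73 to -0.13), and that of *Bmp4*, which had 5 to 14 counts per brain, is the widest (-0.19 to 1.20).

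Among the ligands, *Bmp4* (chr14:46383520-46390669, minus strand), a dorsal midline ligand, was close to the limit of the counts. It had 6, 5, 9 and 14 counts in the control brains F36, F37, M30 and M31 and 13, 11, 10 and 14 in the stressed brains F34, F35, M28 and M29. The stressed brains all lay in the upper part of the control range. The log2 fold change was 0.51 (SE 0.34, edgeR adjusted p = 0.362), with a 95% confidence interval of -0.19 to 1.20.

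*Bmp6* (chr13:38345107-38500302, plus strand) stood at 2.99, 3.03, 2.97 and 2.67 CPM in the control brains and at 3.48, 2.21, 2.44 and 2.14 CPM in the stressed brains. The stressed female F34 lay above every control brain and the other 3 stressed brains lay below them all. The log2 fold change was -0.18 (SE 0.14, edgeR adjusted p = 0.436), and it was -0.36 (adjusted p = 0.109) without stress F34 and -0.08 without stress F35. Stress F34 was also the brain with the most *Ttr*, the transthyretin gene that marks the choroid plexus, at 29.9 CPM against 0.564 to 6.95 CPM in the other 7, and the part of choroid plexus tissue in the *Bmp6* value was not tested. *Bmp7* (chr2:172868012-172940321, minus strand), the most abundant of the 3 ligands per length, ranged from 6.52 to 8.19 CPM in the control brains and from 5.94 to 8.05 CPM in the stressed brains. These ranges overlapped almost wholly, and the log2 fold change was -0.03 (SE 0.09, edgeR adjusted p = 0.874, 95% confidence interval -0.20 to 0.15).

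None of the Smads was called, and their log2 fold changes ran from -0.02 in *Smad6* to -0.43 in *Smad9*. *Smad9* (chr3:54755582-54801257, plus strand) stood at 2.11, 2.64, 2.43 and 2.32 CPM in the control brains and at 1.81, 2.13, 1.43 and 1.73 CPM in the stressed brains. The groups met only where stress F35 lay just above control F36. The mean was 2.38 ± 0.222 CPM (SD, n = 4) in the control group and 1.78 ± 0.290 CPM (SD, n = 4) in the stress group, a log2 fold change of -0.43 (SE 0.15, edgeR adjusted p = 0.0527). It was called without control F36 (-0.52, adjusted p = 0.0289) and without stress F35 (-0.51, adjusted p = 0.0357), and by no other omission of a brain (adjusted p up to 0.165). DESeq2 gave an adjusted p of 0.192, and the gene had only 41 to 75 counts per brain.

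*Smad7* (chr18:75367529-75395935, plus strand), the inhibitory Smad that acts on both the BMP and the TGF-beta branch, stood at 10.1, 10.3, 9.76 and 10.1 CPM in the control brains and at 9.45, 9.09, 8.78 and 9.22 CPM in the stressed brains. Every stressed brain lay below every control brain, as in 8.22% of all genes tested. The exact two-sided permutation test gave p = 0.0286, the smallest that 4 brains against 4 can give. That value follows from groups that do not overlap and adds nothing to it. In the fit over all genes the log2 fold change was -0.14 (SE 0.07, edgeR adjusted p = 0.192, 95% confidence interval -0.28 to 0.00). It was the same, -0.14, in females and in males fitted alone. *Smad6* (chr9:63953076-64022059, minus strand), the inhibitor more selective for BMP receptors, ranged from 1.80 to 2.57 CPM in the control brains and from 1.77 to 2.20 CPM in the stressed brains. Its log2 fold change was -0.02 (SE 0.14, edgeR adjusted p = 0.947), with an interval of -0.32 to 0.28.

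Both feedback inhibitors are known to be expressed in blood vessels, and endothelial markers moved in these brains. Of the 8 markers, 5 were lower in the stress group and 0 higher (DESeq2 also called 0 higher, and none was higher at an unadjusted p under 0.05). The summed level was 164 to 183 CPM in the control brains and 146 to 155 CPM in the stressed brains, so the groups did not overlap. DESeq2 called 2 of the 8 lower. The VEGF receptor genes *Flt1* (log2 fold change -0.41, SE 0.06) and *Kdr* (-0.29, SE 0.04) were among the 5. None of the markers was at 0. The part of endothelial cells in the *Smad7* value was not tested, and in RNA of brain tissue fewer cells of a type and less RNA per cell cannot be told apart.

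Of the target genes, *Id4* (chr13:48261228-48266026, plus strand), the *Id* gene of cortical and other neural progenitors, had the most counts, 8654 to 10351 per brain. It stood at 315, 318, 337 and 320.1 CPM in the control brains F36, F37, M30 and M31 and at 332, 342, 341 and 358 CPM in the stressed brains F34, F35, M28 and M29. The highest control brain, M30, lay above the lowest stressed brain, F34, and the other 3 stressed brains lay above every control brain. The mean was 323 ± 9.99 CPM (SD, n = 4) in the control group and 343 ± 10.7 CPM (SD, n = 4) in the stress group. The log2 fold change was 0.09 (SE 0.03, edgeR adjusted p = 0.0294), the 1922nd smallest p of 17865, and the exact two-sided permutation test over the 8 brains gave p = 0.0571. The difference was 0.09 in females (SE 0.04) and 0.09 in males (SE 0.04), fitted alone. The call held without control M30, stress F34 or stress M28, and was lost without any of the other 5 brains, with adjusted p-values of 0.0735 without control F36, 0.0721 without control F37, 0.10 without control M31, 0.0713 without stress F35 and 0.119 without stress M29. Of its exon bases 4.44% are shared with genes on the opposite strand. Reads wholly within shared bases cannot be assigned to a single gene in a count made without strand. Shared in the same way are 5.74% of the exon bases of *Bmp6* and 3.96% of those of *Bmp4*, and the other members share none.

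Radial glia, the progenitors of the fetal brain, are a known site of *Id4*, and 4 of their 8 markers rose and 0 fell with stress (DESeq2 called 3 higher and 0 lower, and 0 were lower at an unadjusted p under 0.05). These were *Sox2* (log2 fold change 0.12), *Pax6* (0.14), *Nes* (0.14, not called by DESeq2, adjusted p = 0.204) and *Vim* (0.12). *Hes1* (-0.08) and *Hes5* (-0.10), targets of Notch, and *Fabp7* (-0.02) and *Slc1a3* (-0.04) were not called. The summed level of the 8 overlapped between the groups, at 1529 to 1623 CPM in the control brains and 1559 to 1686 CPM in the stressed brains. The part of radial glia in the *Id4* value was not tested.

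*Id2* (chr12:25093799-25097140, minus strand), which is expressed in progenitors and also in neurons, did not share the difference of *Id4*. It stood at 137, 137, 126 and 139.8 CPM in the control brains and at 125, 136, 141 and 141 CPM in the stressed brains. Both stressed females lay below both control females and both stressed males lay above both control males. The share of all genes with such a pattern was not counted, so nothing is read from it. The log2 fold change over all 8 brains was 0.01 (SE 0.04, edgeR adjusted p = 0.929, 95% confidence interval -0.07 to 0.08). It was -0.07 in females and 0.08 in males, and the sex by stress interaction of 0.16 (SE 0.07) was not called (adjusted p = 0.709).

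*Id1* (chr2:152736251-152737410, plus strand) and *Id3* (chr4:136143497-136145755, plus strand), the *Id* genes known from blood vessels as well as from progenitors, were both slightly lower on average. *Id1* stood at 11.36, 10.01, 10.48 and 8.998 CPM in the control brains and at 10.2, 8.45, 9.69 and 8.64 CPM in the stressed brains, a log2 fold change of -0.14 (SE 0.08, edgeR adjusted p = 0.281). *Id3* stood at 20.5, 19.0, 18.8 and 18.1 CPM in the control brains and at 17.7, 16.6, 19.4 and 18.5 CPM in the stressed brains, a log2 fold change of -0.08 (SE 0.06, edgeR adjusted p = 0.406). In both genes the groups overlapped. *Id3* was lower in both stressed females than in both control females (-0.20, SE 0.08) but not in males (0.04, SE 0.07), with an interaction of 0.24 (SE 0.11, adjusted p = 0.762). The interaction was called in 0 of 10 members and in 0.00560% of all genes tested. At an unadjusted p under 0.05 there were 2 of 10 (*Id2* and *Id3*). The share of all genes at that unadjusted threshold was not counted, so nothing is read from this number. The same endothelial markers that lay beside *Smad7* lay beside *Id1* and *Id3*, and their part was not tested.

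Of the summed FPKM of the 4 *Id* genes, *Id4* made up 52.8% ± 1.62 (SD, n = 4) in the control brains and 54.7% ± 0.854 (SD, n = 4) in the stressed brains, with overlapping ranges of 51.4% to 55.2% and 53.5% to 55.2%. *Id2* made up 34.9% ± 1.61 and 34.2% ± 0.965, *Id3* 6.72% ± 0.332 and 6.18% ± 0.342, and *Id1* 5.55% ± 0.517 and 4.91% ± 0.568.

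**Figure D3:**
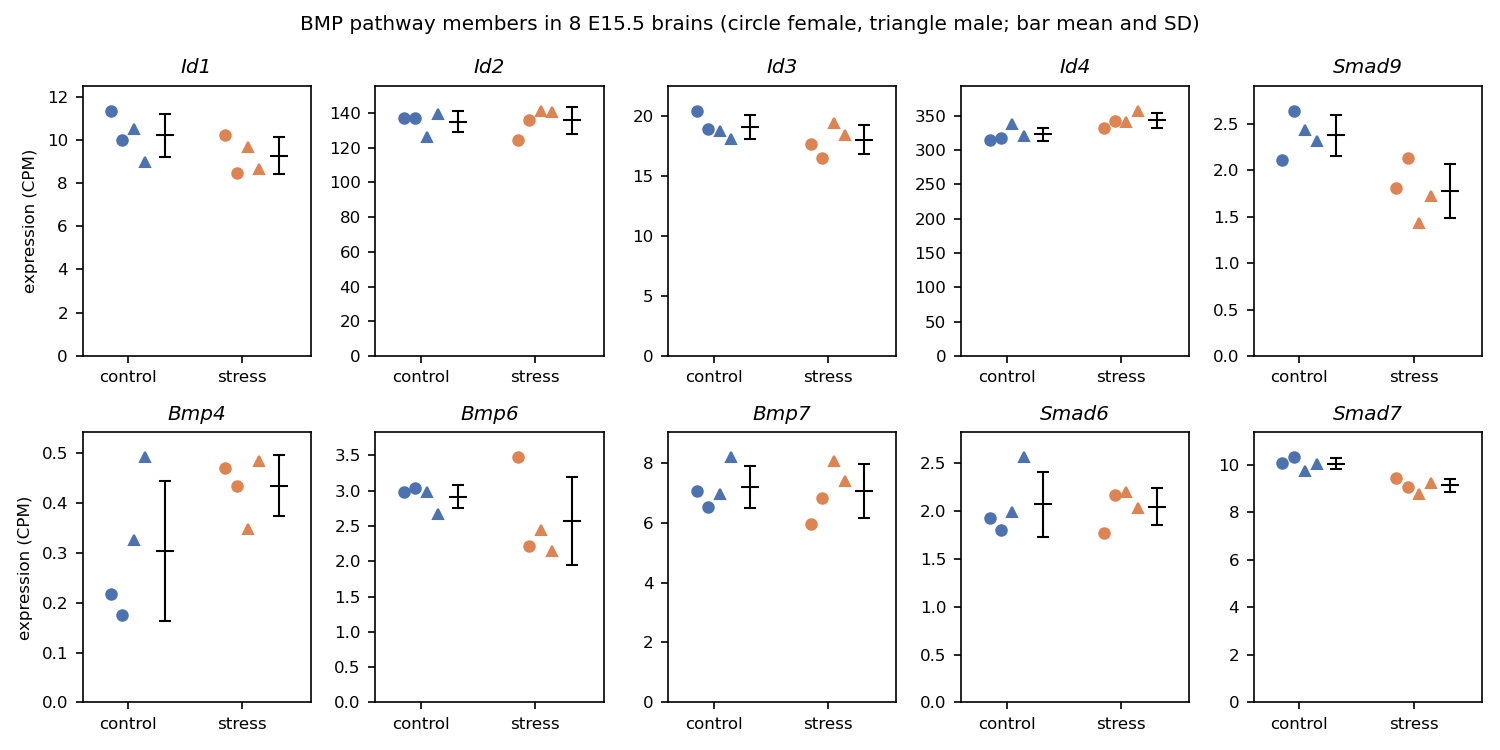
CPM of the 10 members in each brain, with a bar at the mean and an error bar of 1 SD (n = 4 per group), each panel on its own axis from 0. In *Smad7* every stressed brain lies below every control brain, and in *Id4* (323 and 343 CPM on average) the groups overlap in 1 brain each.

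In the rest of the pathway, 56 further genes in 8 lists, 46 had enough counts to be tested. Of these, 4 rose and 1 fell with stress, a share below the 13.8% of all genes, so nothing is read from the number of calls. In 6 of the 46 every stressed brain lay above every control brain, and in 3 every stressed brain lay below. This compares with 8.20% and 8.22% of all genes tested, so nothing is read from these numbers either. The median log2 fold change of the 46 was 0.00. The genes called were extracellular modulators of BMP, a co-receptor and 2 of the E proteins that Id proteins bind, and no ligand, type I or type II receptor, activating Smad or further target gene was called.

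Of the 11 other ligands, 5 were tested and none was called by edgeR or DESeq2, with *Bmp8b* alone at an unadjusted p under 0.05. *Bmp3*, a ligand that tends to oppose the others, was at 6.25 ± 0.510 and 6.76 ± 0.693 CPM (SD, n = 4 each) in the control and stressed brains, and *Bmp2*, the close relative of *Bmp4*, at 2.17 ± 0.268 and 1.79 ± 0.415 CPM. *Bmp8b* lay lower in every stressed brain than in every control brain, but on 8 to 20 counts (log2 fold change -0.66, SE 0.27, adjusted p = 0.113), and 12.2% of its exon bases are shared with 2 genes on the opposite strand. *Gdf7*, a roof plate ligand, had 4, 9, 8 and 5 counts in the control brains and 2, 3, 2 and 3 in the stressed brains, too few to be tested. The last 2 genes are named because their groups did not overlap, after their values were seen.

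Of the 11 receptors and co-receptors, *Eng* alone was called. *Eng* codes for endoglin, an endothelial co-receptor for BMP9 and TGF-beta, and stood at 22.9, 22.7, 23.2 and 22.7 CPM in the control brains and at 19.7, 18.9, 19.0 and 18.5 CPM in the stressed brains. The groups were far apart compared with their spread, and *Eng* fell by 0.27 on the log2 scale (SE 0.05, edgeR adjusted p = 0.000456). The endothelial markers above fell beside it, and their part was not tested. The type I receptor genes *Bmpr1a* and *Bmpr1b* were higher in every stressed brain than in every control brain, at 79.9 ± 2.21 against 84.2 ± 1.24 CPM and at 11.6 ± 0.297 against 12.6 ± 0.348 CPM (SD, n = 4 each), but were not called (adjusted p = 0.115 and 0.234). *Bambi*, a pseudoreceptor that dampens the pathway, was lower in every stressed brain, at 5.69 ± 0.656 against 4.78 ± 0.128 CPM. It was not called (log2 fold change -0.25, SE 0.10, adjusted p = 0.0874), but was without control F37 (-0.33, adjusted p = 0.0389). These 3 genes are named for their groups, after their values were seen, and 16.4% of all genes tested had groups that did not overlap.

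Of the 15 extracellular antagonists and modulators, 12 were tested, 2 rose and 0 fell (0 also by DESeq2 and at an unadjusted p under 0.05). *Twsg1*, a secreted protein that binds BMPs together with chordin, stood at 87.2, 87.4, 89.1 and 86.3 CPM in the control brains and at 98.1, 94.4, 99.7 and 97.8 CPM in the stressed brains. The groups did not overlap, and the log2 fold change was 0.16 (SE 0.03, edgeR adjusted p = 0.000763), called without each brain in turn. *Fstl1*, a follistatin-like secreted protein, rose by 0.13 (SE 0.04, adjusted p = 0.0191), from 60.4 to 64.8 CPM in the control brains to 65.1 to 72.5 CPM in the stressed brains. Its call was lost without control F36 (adjusted p = 0.0590), control F37 (0.0520), control M31 (0.0501), stress F34 (0.0684) or stress M28 (0.109). The classic antagonists *Nog* (log2 fold change -0.04) and *Chrd* (0.03) were not called.

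The E proteins are the partners that Id proteins hold away from DNA. *Tcf3* stood at 113, 110.4, 114 and 105 CPM in the control brains and at 128, 115, 120.0 and 122 CPM in the stressed brains. *Tcf12* stood at 159, 159, 167 and 159 CPM in the control brains and at 175, 170.1, 172 and 176 CPM in the stressed brains. In both genes every stressed brain lay above every control brain, and both rose, *Tcf3* by 0.13 (SE 0.03, edgeR adjusted p = 0.00915) and *Tcf12* by 0.11 (SE 0.03, adjusted p = 0.0101). *Tcf4*, the most abundant of the 3 in counts, was not called (log2 fold change -0.01, SE 0.03, 514 ± 7.74 and 509 ± 9.77 CPM, SD, n = 4 each). The call of *Tcf3* was lost without stress F34 (adjusted p = 0.0543), and that of *Tcf12* held without each brain in turn. Of the 8 radial glia markers, *Sox2* (0.12), *Pax6* (0.14), *Nes* (0.14, not called by DESeq2) and *Vim* (0.12) rose beside these genes. *Hes1* (-0.08), *Hes5* (-0.10), *Fabp7* (-0.02) and *Slc1a3* (-0.04) were not called, and the summed level of the 8 overlapped between the groups. The part of radial glia in the *Tcf3* and *Tcf12* values was not tested.

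**Figure D4:**
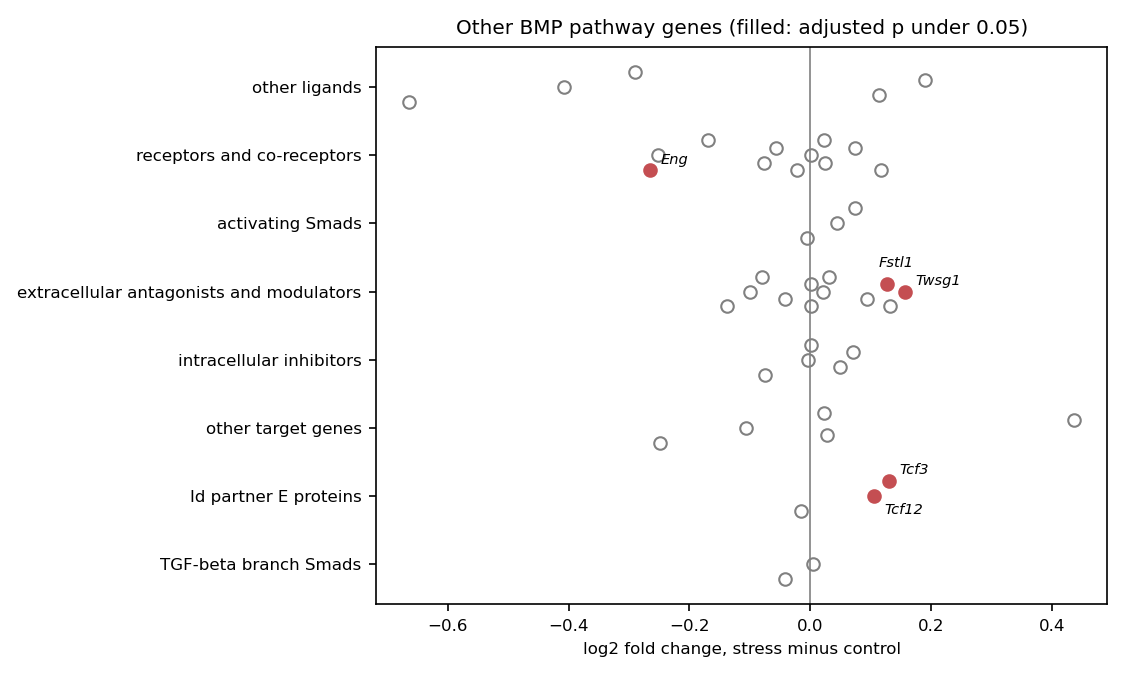
Log2 fold change, stress minus control, of the 46 tested pathway genes other than the members, 1 point per gene, by list. Filled points mark the 5 genes called, of which *Twsg1*, *Fstl1*, *Tcf3* and *Tcf12* lie above 0 and *Eng* below.

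The remaining lists held no call by edgeR or DESeq2 over all 8 brains. Among the activating Smads, *Smad1* (log2 fold change 0.07, SE 0.03, adjusted p = 0.157), the only one of these 3 at an unadjusted p under 0.05, *Smad5* (-0.01) and *Smad4* (0.04) were not called. Among the 5 intracellular inhibitors, of which 2 (*Smurf1* and *Skil*) had an unadjusted p under 0.05, the co-repressor gene *Ski* was at 133 ± 1.53 and 133 ± 7.27 CPM, and the ubiquitin ligase gene *Smurf1* at 117 ± 4.0 and 111 ± 3.65 CPM (SD, n = 4 each). Of the 5 further target genes tested, *Msx3* alone had an unadjusted p under 0.05 (log2 fold change 0.44, SE 0.17, adjusted p = 0.0978). *Msx3* was called in males alone (0.75, SE 0.24, adjusted p = 0.0442) and not in females alone (0.09, SE 0.23, adjusted p = 0.884), and the interaction was not called (adjusted p = 0.799). *Hey1* (0.03) and the roof plate gene *Lmx1a* (0.02) were near 0. The TGF-beta branch Smads *Smad2* (0.00) and *Smad3* (-0.04) were not called either, with 0 at an unadjusted p under 0.05.

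BMP ligands in the fetal brain are made by the choroid plexus and the meninges, and markers of both moved unevenly between brains. Of the 7 choroid plexus markers 3 were higher in the stress group and 0 lower, with a summed 37.7 to 48.7 CPM in the control brains and 47.5 to 77.7 CPM in the stressed brains. Of the 7 meningeal fibroblast markers 6 were tested, 2 were higher and 0 lower, with a summed 14.2 to 22.8 and 16.9 to 45.5 CPM. DESeq2 called 1 of the choroid plexus markers and 0 of the meningeal markers higher, and none of either list was lower by DESeq2 or at an unadjusted p under 0.05. In each list 1 stressed brain stood far above the others, F34 for *Ttr* (29.9 CPM) and M28 for the collagen gene *Col1a1* (11.7 CPM, against 0.846 to 4.27 CPM in the other 7). No marker was at 0 in all 8 brains. *Bmp7* was at 5.94 CPM in F34, its lowest value, and at 8.05 CPM in M28, the highest of the stressed brains. Without F34 the other pathway genes gave 2 calls higher and 1 lower, and without M28 3 higher and 1 lower. The part of these tissues in the ligand values was not tested.

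**Figure D5:**
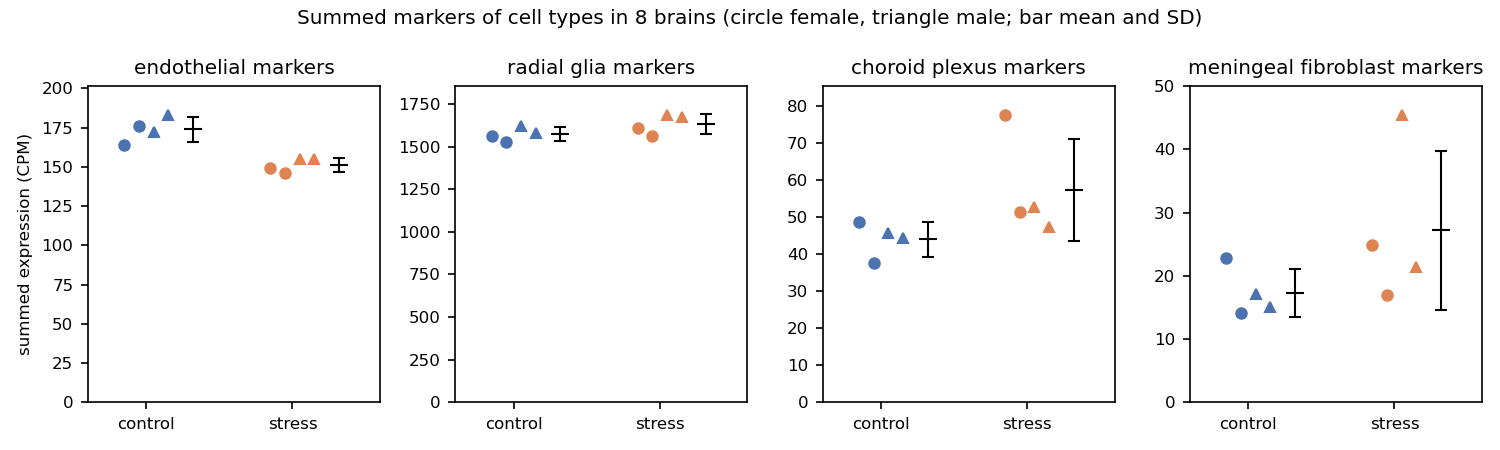
Summed CPM of marker genes of 4 cell types in each brain, with the mean and SD (n = 4 per group), each panel on its own axis from 0. Endothelial markers do not overlap between the groups (164 to 183 and 146 to 155 CPM). Stress F34 stands apart for the sum of choroid plexus markers and stress M28 for the sum of meningeal markers.

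The genes whose log2 CPM followed that of *Id4* most closely over the 8 brains were *Hnrnpc*, an RNA-binding protein gene (Pearson r = 0.988, Spearman rho = 0.976), *Pabpc1*, the poly(A)-binding protein gene (r = 0.985, rho = 1), and the pseudogene *Rpl3-ps1* (r = 0.982, rho = 0.976). These are the highest of 17865 values over 8 libraries that share their groups and their scaling, and are given as a description.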

How the data were processed

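RNA of 8 fetal brains was sequenced, 4 control and 4 stress, 2 females and 2 males each, grouped by the sample labels. The authors aligned reads to mm10 with TopHat2 2.1.1 and counted them on exons of GENCODE genes with featureCounts 1.6.3, without strand, and deposited raw counts per gene. Symbols were matched for 54723 of 54752 identifiers, 34568 of which had a count in any brain. Genes were filtered by filterByExpr (minimum count 10), scaled by TMM and tested by quasi-likelihood (glmQLFit, glmQLFTest) in edgeR 4.0.16 and R 4.3.3 with sex and condition in the model, and p-values were adjusted by Benjamini-Hochberg over all 17865 genes tested. Standard errors came from the fold change and the F value. The study's model also held batch, which is not named for these libraries. CPM used TMM-scaled totals, and FPKM divided CPM by the exon length of the gene. The script was tested on simulated data. With 4 against 4 the smallest exact permutation p is 0.0286.

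The members and gene lists were chosen with earlier results of these data known. The pathway lists leave out 1 gene, which is not reported here. Named genes were all members, pathway genes called or, in a list without calls, the 2 with the most counts, the markers, and the 3 genes most like the member of smallest p. *Gdf7*, *Bmp8b*, *Bmpr1a*, *Bmpr1b*, *Bambi*, *Nog*, *Chrd*, *Tcf4*, *Smad1*, *Skil* and *Msx3* fall outside this rule and were chosen after their values were seen. Alternatives were DESeq2 1.42.0, 3 other scalings, no filter, no sex covariate and each brain left out. A sample far from its group was sought with a gap ratio over 0.829.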

Additional observations from a re-analysis of the deposited data

Results flagged for a closer look

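Among 30 groups of 4 brains (the 10 members and the 5 called pathway genes, in each condition), 2 held a brain whose gap to the nearest other exceeded the 95% limit of the range, and chance alone gives about 1 in 20. *Bmp6* was lowest in control M31, at 2.67 CPM, while the other control brains lay within 2.97 to 3.03 CPM. *Tcf12* was highest in control M30, at 166.6 CPM, below every stressed brain. The log2 fold change of *Id2* in males exceeded that in females by 0.16, with every brain of one sex moving opposite to the other. The interaction was not called (edgeR adjusted p = 0.709), and how many of all genes show such a pattern was not counted.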

How the results depend on the processing

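Over 14 alternatives the 140 fold changes of the 10 members kept their sign in 130, the exceptions being *Id2*, *Bmp7* and *Smad6* with a brain left out. The count of members called higher was 0 without the sex covariate (*Id4*, adjusted p = 0.0910) and 0 to 1 with each brain left out. The count called lower was 1 without the filter on low counts (*Smad9*, adjusted p = 0.0453), 1 without the sex covariate (0.0498) and 0 to 1 with each brain left out. Among the other pathway genes, DESeq2 called 4 higher and 1 lower, and leaving out brains gave 2 to 4 higher and 1 to 2 lower. Over all genes DESeq2 called 748 higher and 911 lower, and leaving out brains gave 736 to 1057 higher and 854 to 1308 lower, the fewest (736 and 854) without stress M29. The interaction was called in 0 members in every setting run. Depth limits *Bmp4* most. No paired analysis was possible because the groups share no replicate numbers.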

Other observations

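Markers of the oligodendrocyte lineage stood at a summed 104 to 115 CPM in the control brains and at 91.0 to 97.1 CPM in the stressed brains, without overlap. Of the 4, *Pdgfra*, the PDGF receptor gene of oligodendrocyte precursors, fell by 0.31 on the log2 scale (SE 0.05) and *Olig1* fell by 0.26 (SE 0.04), both also called by DESeq2, while *Olig2* (-0.07) and *Sox10* (-0.01) were not called. Of the 6 neuron markers, *Rbfox3*, *Stmn2* and *Snap25* were lower by edgeR, the last not by DESeq2 (adjusted p = 0.344), and *Tubb3*, *Map2* and *Dcx* were not called, with overlapping sums of 6103 to 6332 and 6026 to 6282 CPM. Of the 6 erythroid markers, the globin gene *Hbb-bs* alone was called, lower by a log2 fold change of -0.14, and the sums were 359 to 406 and 361 to 376 CPM. None of the 5 pericyte and none of the 5 microglia markers was called by edgeR or DESeq2, with 1 of the 5 pericyte markers (*Cspg4*) and 0 of the 5 microglia markers at an unadjusted p under 0.05. Their sums were 138 to 150.5 and 139 to 148 CPM for pericytes and 25.6 to 29.1 and 24.6 to 28.1 CPM for microglia. The part of these cell types in the values of the BMP pathway genes was not tested.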
